A study of Mus musculus with 16 samples.

Results

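Mouse chromosomes 10 and 12 carried few peaks of H3K27me3, and the peaks that did lie there are described here. They were all peaks that the 8 deposited H3K27me3 lists place on either chromosome, 3094 of 106385 peaks in the series. Merged wherever they overlapped between libraries, they gave 2238 of the 61441 regions of the whole series, 1394 on chromosome 10 and 844 on chromosome 12. The chromosomes were chosen because their share of peaks was low, so their low share is given as a description and was not tested.

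The cells were CCN6KOT, grown from a mouse breast tumour of the spindle metaplastic kind that lacks CCN6, a secreted matricellular protein of the CCN family encoded by the gene Ccn6 on chromosome 10. Control cells (PPGS in the labels) received a control lentivirus, and dnTCF4 cells received a lentivirus with a dominant negative TCF4, which blocks the activation of WNT target genes by beta-catenin. Both groups were selected with puromycin and both lack CCN6, so no group with CCN6 entered the comparison, and all libraries represent a single tumour cell line. Each group had 4 H3K27me3 libraries, made by ChIPmentation from chromatin fixed in 1% formaldehyde with 4 micrograms of antibody, and the 8 IgG samples were not analysed here. The labels do not say that the numbered libraries came from separate cultures, so the spread between them may be technical. A peak list shows neither expression nor a deleted exon, so the cell type and the knockout could not be checked from these lists.

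H3K27me3 is a methyl mark on lysine 27 of histone H3. It is written by EZH2, the catalytic subunit of Polycomb repressive complex 2, and is typically found in broad domains over silent developmental genes, whose CpG-rich promoters recruit the complex. The same complex also spreads the mark at lower levels over silent chromatin between genes. The study asked how EZH2 shapes the epigenome of these tumours and compared cells with and without a block of WNT output.

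Peaks on chromosomes 10 and 12 almost never covered a gene's start. Of the 2926 promoter windows that RefSeq gives for these chromosomes on GRCm38.p6, each running from 250 bases before to 50 bases after an annotated start, 11 (0.376%) overlapped a peak in any library, against 815 of 29693 (2.74%) on the other chromosomes. The lower share of windows is part of the low peak coverage for which the chromosomes were chosen, and it was not tested. Coverage dipped at gene starts elsewhere too, as described below. The 11 windows belonged to 10 genes. The 3 with the most covered bases are shown as the 250 bases before the start, 5′ to 3′ on the gene's own strand, with the bases that lie inside a peak in capitals. They were chosen after their values were seen, since none of the genes named by the rule for naming genes had a start inside a peak. Gm26740 is a long noncoding RNA gene between the immune ligand genes H60b and Raet1d (chr10:22302824-22303073, minus strand), and all 250 bases lay in peaks of control 3 and control 4. Lin28b encodes an RNA-binding protein that blocks maturation of let-7 microRNAs (chr10:45470202-45470451, minus strand), and 243 bases lay in a peak of control 3. Rdh9 encodes a retinol dehydrogenase (chr10:127776155-127776404, plus strand), and 210 bases lay in a peak of control 3, which ended 0.041 kb before the start.
Gm26740: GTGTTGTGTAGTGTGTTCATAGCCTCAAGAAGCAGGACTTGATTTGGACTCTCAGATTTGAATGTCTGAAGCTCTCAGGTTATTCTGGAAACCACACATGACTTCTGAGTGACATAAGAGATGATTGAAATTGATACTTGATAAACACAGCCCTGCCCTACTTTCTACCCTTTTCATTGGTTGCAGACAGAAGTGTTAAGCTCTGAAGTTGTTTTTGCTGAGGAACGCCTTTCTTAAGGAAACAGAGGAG
Lin28b: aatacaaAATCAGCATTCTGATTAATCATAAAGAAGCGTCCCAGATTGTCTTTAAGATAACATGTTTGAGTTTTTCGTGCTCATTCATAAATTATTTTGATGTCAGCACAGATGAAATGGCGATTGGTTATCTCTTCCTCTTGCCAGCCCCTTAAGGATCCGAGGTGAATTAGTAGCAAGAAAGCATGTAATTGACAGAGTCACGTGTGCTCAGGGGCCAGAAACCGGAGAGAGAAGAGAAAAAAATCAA
Rdh9: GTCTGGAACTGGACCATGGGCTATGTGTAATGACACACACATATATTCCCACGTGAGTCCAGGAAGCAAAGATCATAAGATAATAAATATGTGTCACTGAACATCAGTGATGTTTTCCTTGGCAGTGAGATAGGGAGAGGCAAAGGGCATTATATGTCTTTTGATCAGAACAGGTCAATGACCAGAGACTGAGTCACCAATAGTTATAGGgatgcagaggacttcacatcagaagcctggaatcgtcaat

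For comparison, the same stretch is shown for Il20ra and Vgll2, which had peaks nearby but none in the window. Il20ra encodes a subunit of the interleukin 20 receptor (chr10:19712337-19712586, plus strand), and its nearest region began 0.883 kb from the start. Vgll2 encodes a cofactor of TEAD transcription factors (chr10:52022252-52022501, plus strand), and its nearest region lay 1.08 kb from the start.
Il20ra: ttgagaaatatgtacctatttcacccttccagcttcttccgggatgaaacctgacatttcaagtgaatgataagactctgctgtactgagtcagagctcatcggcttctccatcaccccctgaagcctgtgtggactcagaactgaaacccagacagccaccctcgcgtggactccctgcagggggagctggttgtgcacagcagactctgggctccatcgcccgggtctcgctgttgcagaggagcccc
Vgll2: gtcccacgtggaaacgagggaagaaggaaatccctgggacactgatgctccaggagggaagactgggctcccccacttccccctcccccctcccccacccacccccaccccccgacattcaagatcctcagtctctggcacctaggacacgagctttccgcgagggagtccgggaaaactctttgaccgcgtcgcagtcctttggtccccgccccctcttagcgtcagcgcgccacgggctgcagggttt
The dinucleotide CG, searched for as those letters, occurred 1 time in the Gm26740 stretch, 6 times in Lin28b and 2 times in Rdh9, and it occurred 7 times in Il20ra and 15 times in Vgll2. Other genes went the other way. In the same stretch, CG occurred 16 times at 1500009L16Rik, where 10 bases lay in a peak, and 6 times at Ccn6, where none did. Among 114 protein-coding genes on chromosomes 10 and 12 with a region within 2 kb of a start, the median number of CG in this stretch was 10.5, and 51.8% of them had 10 or more. Among 1303 genes without such a region the median was 14, and 61.2% had 10 or more. On the other chromosomes the medians were 8 for 2020 marked and 11 for 13837 unmarked genes, so the marked promoters had fewer CG there as well. These counts describe the letters only.

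The number of peaks on chromosomes 10 and 12 varied over 3 orders of magnitude between libraries. Control 1 had none, control 2 had 7, control 3 had 1963 and control 4 had 408, and dnTCF4 1 to 4 had 652, 1, 31 and 32. Control 3 thus supplied most of the peaks, followed by dnTCF4 1 and control 4, while the other 5 libraries together added few. The full lists differed in the same way, with 426, 738, 54070 and 22745 peaks in control 1 to 4 and 21492, 191, 4885 and 1838 in dnTCF4 1 to 4. No list gives read counts, so sequencing depth is unknown and an absent peak does not show an absent mark.

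Chromosomes 10 and 12 make up 9.53% of the annotated length of the autosomes and X, 4.96% and 4.56%. They held 0%, 0.545%, 2.36% and 1.10% of the length covered by peaks in control 1 to 4, and 1.91%, 0.143%, 0.417% and 1.01% in dnTCF4 1 to 4. The share was below the annotated share in all 8 libraries, by 4.03-fold in control 3, 4.98-fold in dnTCF4 1, 8.68-fold in control 4, 9.41-fold in dnTCF4 4, and 17.5-fold, 22.9-fold and 66.8-fold in control 2, dnTCF4 3 and dnTCF4 2. The last of these values rest on few peaks, and their order followed list length only in part: dnTCF4 4, with 1838 peaks, lay nearer to parity than dnTCF4 3, with 4885. The value of dnTCF4 2 also depends on chromosome 9: with that chromosome left out, its share was 0.430% instead of 0.143%. Counted as peaks, the share over the 8 libraries was between 0% and 3.63%.

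**Figure D1:**
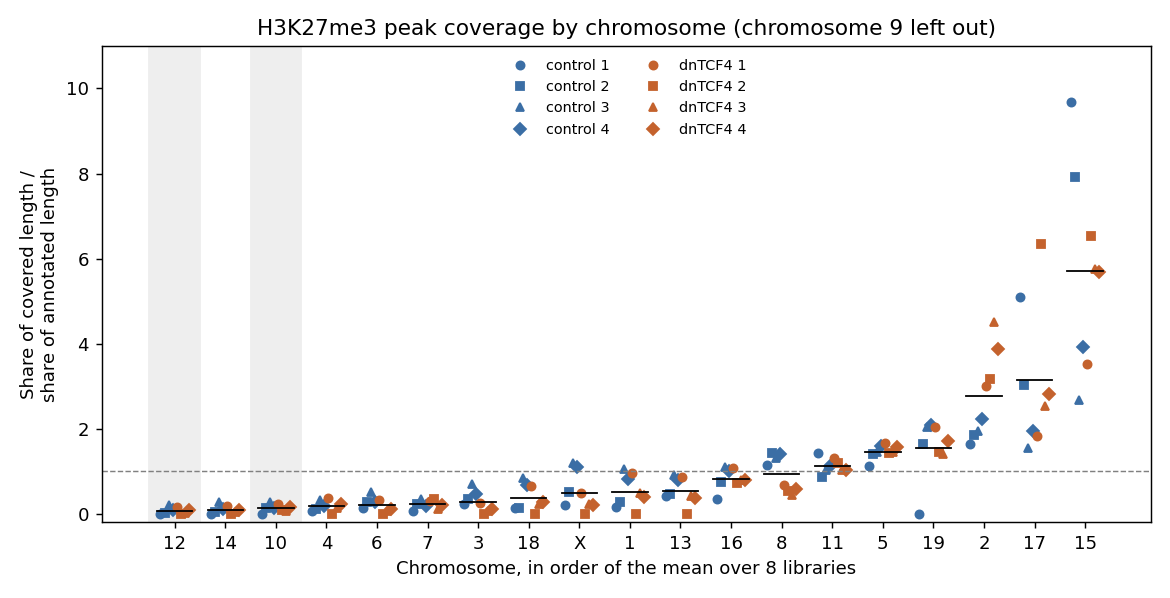
Share of each library's covered length over the chromosome's share of annotated length (y axis, no unit; dashed line, parity) for each chromosome (x axis, ordered by the mean over 8 libraries, short black lines), with chromosome 9 left out. Blue points are control and orange points dnTCF4 libraries, and chromosomes 12 and 10, shaded, had means of 0.0679 and 0.141, with chromosome 14 between them at 0.0931.

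Chromosome 12 was the sparser of the pair. It held 0, 1, 748 and 145 peaks in control 1 to 4 and 239, 0, 6 and 9 in dnTCF4 1 to 4, while chromosome 10 held 0, 6, 1215 and 263, and 413, 1, 25 and 23. With chromosome 9 set aside, because in dnTCF4 2 the other chromosomes outside 9 held only 33.0% of the covered length, the share of covered length over the share of annotated length averaged 0.0679 for chromosome 12 and 0.141 for chromosome 10. Sparse marking was not particular to these chromosomes. Chromosome 14, at 0.0931, lay between them, and chromosomes 4, 6 and 7 followed at 0.175, 0.211 and 0.222, while chromosomes 15, 17 and 2 stood at the other end with 5.71, 3.14 and 2.78. Chromosome 12 had the lowest or joint lowest value in every library, whereas chromosome 10 ranked from joint lowest in control 1 to the tenth from the bottom in dnTCF4 2, where its value rests on 1 peak.

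Peaks on chromosomes 10 and 12 were mostly narrower than on the other chromosomes outside 9 as a whole, while fold differed little. The median width in control 3, control 4 and dnTCF4 1 was 427, 326 and 348.5 bp, against 607, 476 and 493 bp on the other chromosomes outside 9. In dnTCF4 3 and dnTCF4 4, with 31 and 32 peaks, it was 263 and 219 bp against 398 and 299 bp. The ratio of the medians therefore lay between 0.661 and 0.732 in these 5 libraries. The 7 peaks of control 2 had a median of 320 bp against 301 bp, and the single peak of dnTCF4 2 was 184 bp wide against a median of 254.5 bp. Chromosome 14 had similarly narrow peaks, with medians of 466.5, 314 and 408 bp in control 3, control 4 and dnTCF4 1.

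The fold enrichment, which is the authors' ratio of signal over background for each peak, had a median of 2.99 in control 3, 3.40 in control 4 and 3.48 in dnTCF4 1. On the other chromosomes outside 9 it was 3.01, 3.39 and 3.50. In dnTCF4 3 and dnTCF4 4 the medians were 4.24 and 4.80 against 4.05 and 4.49. Within a library the ratio of the medians was between 0.995 and 1.07, so fold differed far less than width. The 3 libraries with the longest lists had the lowest medians on both sets of chromosomes.

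**Figure D2:**
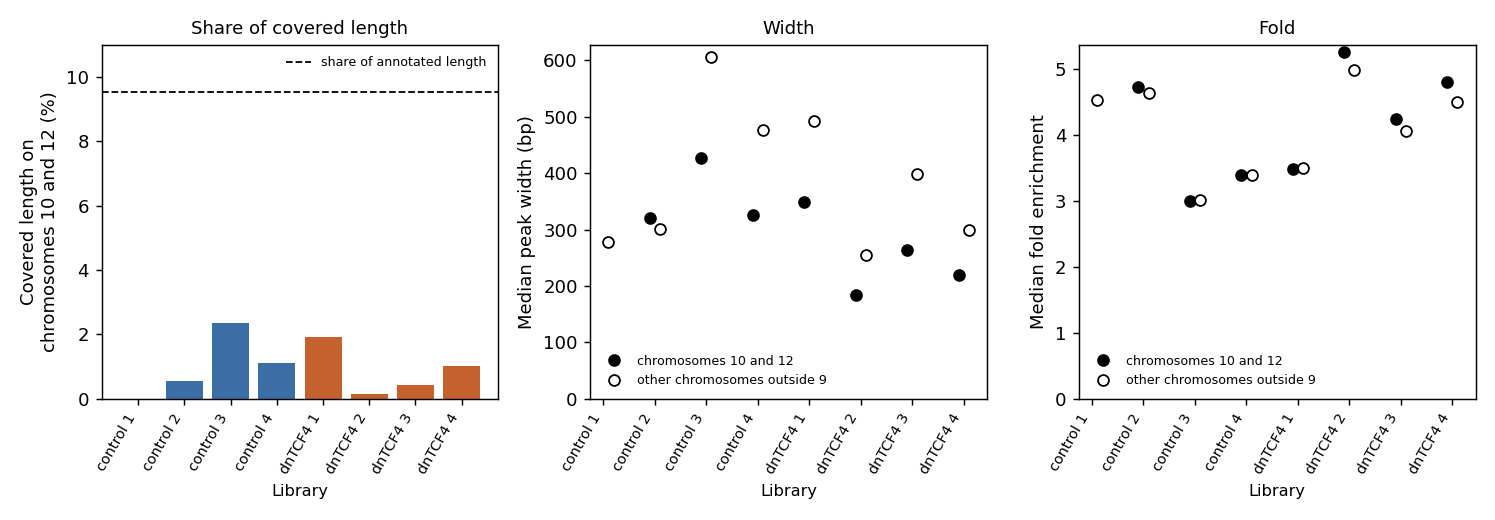
Left, percent of each library's covered length on chromosomes 10 and 12 (bars, blue control and orange dnTCF4) against their 9.53% of annotated length (dashed line). Middle and right, median peak width in bp and median fold enrichment on chromosomes 10 and 12 (filled) and on the other chromosomes outside 9 (open), where width is lower in 6 of the 7 libraries with peaks there and fold nearly the same.

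Wide peaks took a smaller share than elsewhere. In control 3, 351 of 1963 peaks (17.9%) reached 1 kb, against 30.5% elsewhere. In control 4 it was 21 peaks (5.15%) against 20.4%, and in dnTCF4 1 it was 64 peaks (9.82%) against 22.8%. On chromosome 14 the shares were much the same, 18.0%, 5.99% and 11.3%. Peaks with another peak of the same list within 5 kb made up 59.3%, 27.2% and 46.8% in these 3 libraries, against 79.2%, 68.4% and 70.4% elsewhere. That share falls with peak density, for which the chromosomes were chosen, and adds nothing independent. The widest peak on either chromosome was 4717 bp, in control 3, whereas its widest peak on the other chromosomes outside 9 was 27567 bp.

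Most regions on chromosomes 10 and 12 were seen in a single library. Of 2238 regions, 1685 (75.3%) had a peak in 1 library, against 64.6% over all regions of the series and 75.4% on chromosome 14. Those seen alone came from control 3 (1428), dnTCF4 1 (168), control 4 (87) and dnTCF4 3 (2). A further 553 regions (24.7%, against 35.4% over all) were marked in at least 2 libraries, and 34 (1.52%, against 5.73%) in at least 4. Regions marked in at least 5 libraries numbered 12 (0.536%, against 2.03% over all and 0.429% on chromosome 14). None was marked in all 8, since control 1 had no peak there.

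Libraries with shorter lists mostly marked places that the longer lists marked too. Control 3 peaks overlapped 73.5% of the control 4 peaks and 70.1% of the dnTCF4 1 peaks, which overlapped 14.6% and 22.1% of the control 3 peaks in return. Of the 31 peaks of dnTCF4 3, 90.3% overlapped a dnTCF4 1 peak and 83.9% a control 3 peak. Of the 32 peaks of dnTCF4 4, the shares were 93.8% and 81.2%. All 7 peaks of control 2 overlapped peaks of control 4 and of dnTCF4 1.

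The most recurrent locus lay inside Tbc1d30, which encodes a GTPase-activating protein for Rab proteins (chr10:121311927-121314039, 2113 bp). Peaks covered 0, 341, 419 and 430 bp of it in control 1 to 4, and 2113, 184, 375 and 372 bp in dnTCF4 1 to 4. It was marked in 7 libraries, and the peak was short in all of them except dnTCF4 1. With 25% of the region required, only dnTCF4 1 marked it, so its recurrence depends on counting any overlap. Its fold in dnTCF4 4, 6.85, was the highest of any peak on the chromosomes, and in the other marked libraries it ranged from 3.64 to 5.25. The only peak of dnTCF4 2 on chromosomes 10 and 12 was the one at this locus.

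On chromosome 12 the region that recurred most lay 10.6 kb from Tmem63c, a gene for a membrane protein of the TMEM63 channel family (chr12:87008047-87010700). Peaks covered 0, 198, 2539 and 1946 bp in control 1 to 4 and 1714, 0, 304 and 706 bp in dnTCF4 1 to 4, so 3 libraries of each group marked it. Within Sobp, a gene for a zinc finger protein of inner ear and brain development, the region at chr10:43129175-43130996 was covered over 0, 281, 1242 and 650 bp and 1809, 0, 528 and 437 bp. It too was marked in 3 libraries of each group.

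A single recurrent region was over 1 kb in a library with a short list. This region, 37.9 kb from Hsf2, which encodes a heat shock transcription factor (chr10:57442118-57445904), was covered over 0, 414, 2643 and 3223 bp in control 1 to 4 and 1700, 0, 3211 and 0 bp in dnTCF4 1 to 4. The 3211 bp peak was the only one of the 31 in dnTCF4 3 that reached 1 kb. dnTCF4 4, with a list of 1838 peaks, had none there.

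Wif1, whose product binds WNT ligands outside the cell and inhibits them, had marks in and around it. The intragenic region at chr10:121057854-121058278 was covered over 0, 0, 425 and 226 bp in control 1 to 4 and 366, 0, 215 and 210 bp in dnTCF4 1 to 4, and its fold in control 3 was 5.05. A second recurrent region lay 46.7 kb outside the gene (chr10:121147355-121149689), with 0, 0, 2206 and 316 bp and 2284, 0, 160 and 526 bp. Another, at chr10:121092479-121096561 inside the gene, was among the 6 widest of the chromosomes, with 4083 bp in control 3, 881 bp in control 4 and 1192 bp in dnTCF4 1. In all, 9 regions lay in the body of Wif1, and the Mb that holds Wif1 and Tbc1d30 carried 26.6 kb of peaks in control 3, 5.29 kb in control 4 and 16 kb in dnTCF4 1.

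The region in Il20ra, 0.883 kb from the start whose sequence is shown above (chr10:19713470-19714610), was covered over 0, 0, 1137 and 875 bp in control 1 to 4 and 920, 0, 441 and 312 bp in dnTCF4 1 to 4. A region in Pcbp3, a gene for a poly(C)-binding protein (chr10:76804260-76805752), had 0, 0, 1488 and 258 bp and 999, 0, 238 and 176 bp, with a fold of 6.06 in dnTCF4 1. Each had peaks in 2 of the control and 3 of the dnTCF4 libraries. The other 4 of the 12 most recurrent regions were at most 613 bp wide. They lay 33.5 kb from Setd3, an actin methyltransferase gene, 3.43 kb from Mfsd4b5, inside Gm5134 and 26.4 kb from Gm2137.

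**Figure D3:**
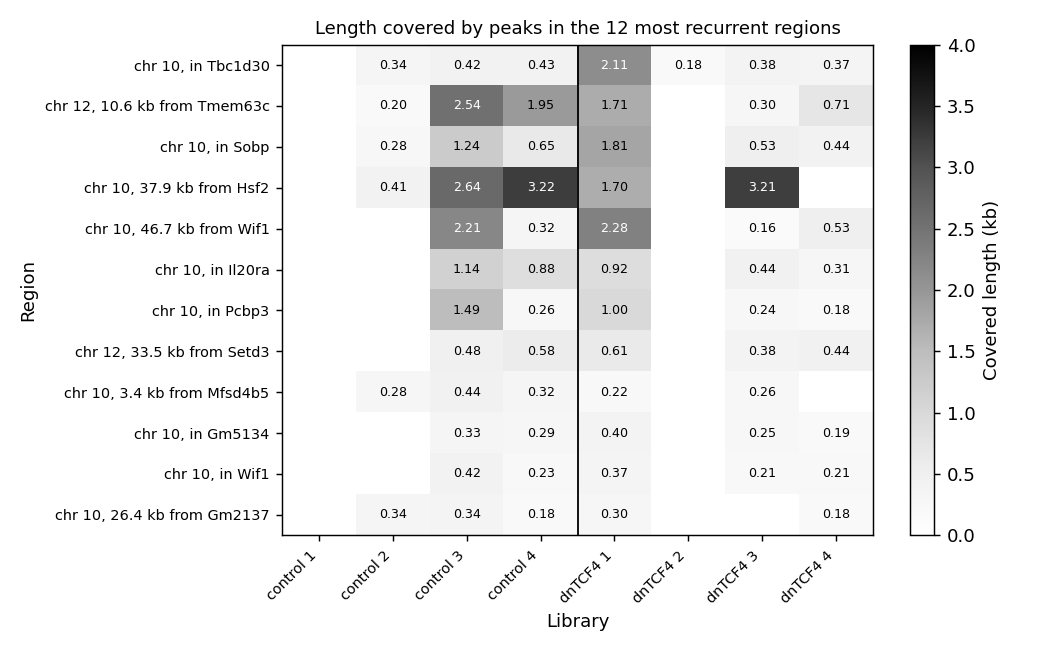
Length covered by peaks in kb (grey scale and printed values) for the 12 regions marked in the most libraries (rows, named by the gene that holds them or lies nearest) in each library (columns, control left and dnTCF4 right of the line). Control 1 is empty throughout, dnTCF4 2 marks only the region in Tbc1d30, and most peaks are under 1 kb.

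The widest regions took their width from control 3. The widest, 4717 bp, lay 2.80 kb from Nr2e1, which encodes an orphan nuclear receptor of neural stem cells (chr10:42586389-42591105), and was covered over 4717 bp in control 3, 1124 bp in control 4 and 1869 bp in dnTCF4 1. Another, 23.9 kb from the same gene, was covered over 4376, 1168 and 1201 bp in these libraries and over 320 bp in dnTCF4 3. A region in Sobp (chr10:43167450-43172112) had 4663, 633 and 2753 bp, and one 7.66 kb from the lysozyme gene Lyz1 had 4364, 438 and 821 bp. A region 7.75 kb from Olig3, which encodes a basic helix-loop-helix factor of the developing nervous system, was 3912 bp wide and was covered over 3456 bp in control 3 and 582 bp in dnTCF4 1. All 6 of the widest regions lay on chromosome 10.

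Among regions marked in at least 2 libraries, the 6 of highest fold reached it in libraries where peaks covered under 1 kb of them. A region 25.8 kb from Gpatch2l on chromosome 12 was only 244 bp wide and had folds of 4.36 and 4.68 in control 3 and 4 and of 6.43 and 4.91 in dnTCF4 1 and 3. A region in Mypn, which encodes a sarcomere protein, had folds of 3.12, 4.06, 6.01 and 4.86 in control 3, control 4, dnTCF4 1 and dnTCF4 4. A region 8.65 kb from Vrtn, a gene known for its effect on vertebral number, reached 5.94 in dnTCF4 3, where peaks covered 262 bp of it.

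Regions on chromosomes 10 and 12 lay inside protein-coding genes about as often as elsewhere, 807 of 2238 (36.1%) against 35.7% on the other chromosomes, where such genes take 37.9% and 39.3% of the length. Regions within 2 kb of a gene's outer end made up 10.2%, against 9.47%. Of the 34 regions marked in at least 4 libraries, 17 lay inside a gene and 6 at a gene end, and their median width was 1165.5 bp against 423 bp over all 2238. Merging peaks of more libraries widens a region, and a wider region overlaps genes and their ends more often. These values are therefore not a separate trait of recurrent regions. The annotation tables used here give genes and starts but not exons, so exons and introns were not told apart.

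Marks inside genes were unevenly spread over them, as they were over all genes. Of 1680 protein-coding genes, 223 (13.3%) held a region in the body, against 17.8% of all protein-coding genes. Of these 223 genes, 17 (7.62%) held 10 or more, 260 regions between them, against 15.5% over all genes. Most of their covered length came from control 3, such as 23.0 kb in Sobp, against 2.46 kb in control 4 and 7.19 kb in dnTCF4 1. Pcbp3 had 24 regions in 200.3 kb, Sobp 23 in 180.7 kb, Syt16, a synaptotagmin gene, 22 in 270.3 kb and Lama2, a laminin subunit gene, 20 in 635.9 kb. Trim9, a gene for a neuronal ubiquitin ligase, had 18 in 103.3 kb, and Kcnk13, a potassium channel gene, 14 in 99.5 kb. Tet1, whose enzyme oxidises methylcytosine, had 10 in 82.9 kb, and Greb1, a gene known for its response to oestrogen, had 12 in 130.8 kb. These genes were picked by their number of regions, and most are long.

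The peaks were also unevenly spread along the chromosomes. Of 252 bins of 1 Mb, 77 had no peak in any library, and 170, 110 and 129 had one in control 3, control 4 and dnTCF4 1. The 10 bins with the most covered length held 26.5%, 27.7% and 32.2% of it in these libraries, and 4 bins were among the 10 in all 3. The bin starting at 76 Mb of chromosome 10, with Pcbp3 and Slc5a4a, carried 39.9, 4.81 and 17.1 kb in control 3, control 4 and dnTCF4 1. The bin at 22 Mb, with Raet1e and H60b, carried 31.6, 8.39 and 7.94 kb. On chromosome 12 the bin at 72 Mb, with Six6, carried 44.7, 3.81 and 10.0 kb. The 77 bins without a peak include ones with no annotated gene, such as the first 3 Mb of chromosome 10. No matching counts are given here for other chromosomes, so the uneven spread is not shown to be particular to these.

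Around gene starts the peaks left a gap flanked by higher coverage. Over 1730 annotated starts of protein-coding genes on chromosomes 10 and 12, control 3 peaks covered 0.177% of the bases within 0.5 kb, 1.41% at 1 to 5 kb and 0.852% at 10 to 20 kb. In dnTCF4 1 the values were 0.0357%, 0.584% and 0.225%, and in control 4 they were 0.0182%, 0.256% and 0.163%. The other chromosomes outside 9 also dipped at starts, at a higher level, with 1.49%, 3.78% and 3.19% in control 3, 0.589%, 1.85% and 1.28% in dnTCF4 1, and 0.442%, 1.39% and 1.09% in control 4. Of the 1730 starts, 124 (7.17%) had a region within 2 kb, 51 of them only upstream, 38 only downstream and 33 on both sides, and 2 starts lay inside a region. Counted as genes, 114 had such a region and 1303 did not, against 2020 and 13837 on the other chromosomes. The lower share here is part of the low coverage for which the chromosomes were chosen.

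**Figure D4:**
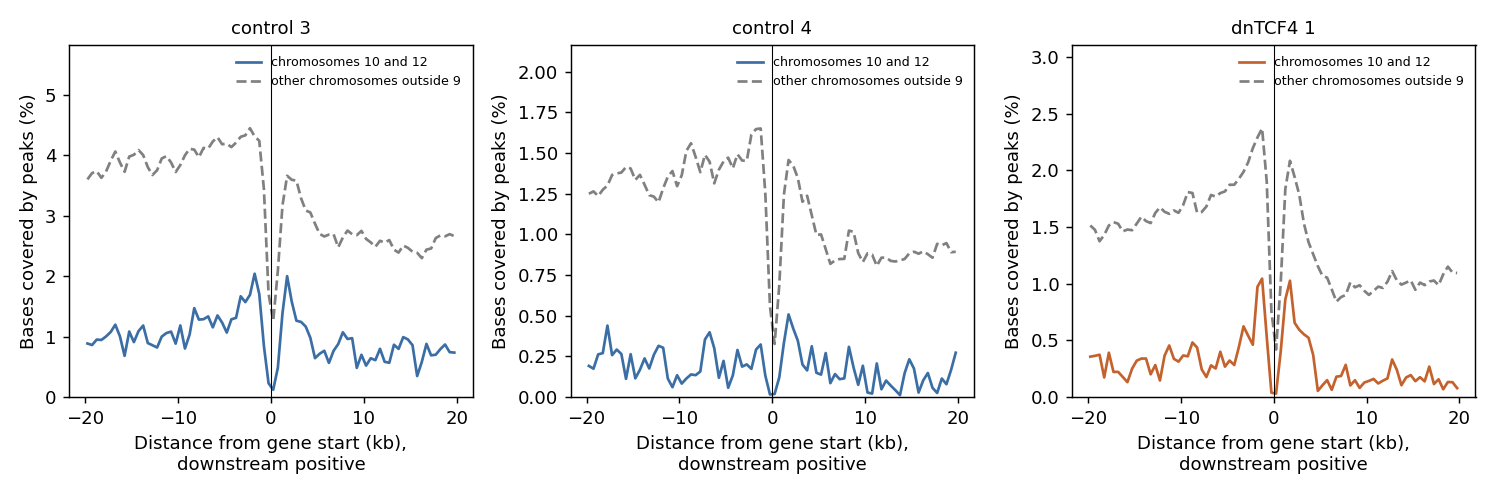
Percent of bases covered by peaks (y axis, own scale in each panel) by distance from annotated gene starts in kb (x axis, downstream positive, bins of 0.5 kb) in control 3, control 4 and dnTCF4 1, for chromosomes 10 and 12 (solid) and the other chromosomes outside 9 (dashed). In control 3 coverage on chromosomes 10 and 12 falls to 0.123% in the first 0.5 kb downstream and is 2.00% at 1.5 to 2 kb.

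Few genes on chromosomes 10 and 12 had a marked end, meaning a peak within 2 kb of either outer end of the annotated gene. Of 1680 protein-coding genes, 158 (9.40%) were marked in at least 1 library, against 15.8% of all protein-coding genes. By library the numbers were 0 in control 1, where 0.296% of all genes were marked, 1 (0.0595%) in control 2 against 0.356%, 147 (8.75%) in control 3 against 14.5%, and 42 (2.50%) in control 4 against 7.66%. They were 82 (4.88%) in dnTCF4 1 against 9.29%, 0 in dnTCF4 2 against 0.0925%, 3 (0.179%) in dnTCF4 3 against 2.83%, and 4 (0.238%) in dnTCF4 4 against 1.07%. The lower share at gene ends is part of the pattern that chose the chromosomes. Of the 158 genes, 84 (5% of the 1680) had a marked end in more than 1 library, and the matching share over all genes is not given here.

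The genes marked in the most libraries were Raet1e, Gm10272, Il20ra, Vgll2 and Gm19402, with 4 each. Raet1e, which encodes a ligand of the activating receptor NKG2D, was marked in control 2, 3 and 4 and in dnTCF4 1. For Il20ra the libraries were control 3 and 4 with dnTCF4 1 and 4, and for Vgll2 they were control 3 and 4 with dnTCF4 1 and 3. Phactr2, Dnah11, Tshr, Greb1 and Npffr1 followed with 3 libraries each. In all, 32 genes were marked in at least 3 libraries, and these 5 had the largest mean covered share of an end window among those with 3. Dnah11 encodes an axonemal dynein heavy chain, Tshr the thyrotropin receptor and Npffr1 a neuropeptide receptor. Of these 5 genes, Greb1 alone was marked in dnTCF4 4, and the others had their marks in control 3, control 4 and dnTCF4 1.

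The developmental transcription factors, a typical class of Polycomb targets, had marks at 10 of 38 members listed on these chromosomes, or 26.3% against the 9.40% of all protein-coding genes there. The list was chosen with earlier results of these data known, so its share is a description and was not tested. All 10 carried a mark in control 3, while control 4 marked 2 of them, dnTCF4 1 marked 6 and dnTCF4 3 marked 1. Six6, a homeobox gene of eye development, had marks in control 3, in control 4 and in dnTCF4 1. Eya4, whose product is a transcriptional coactivator, Npas3, a neuronal factor gene, and Olig3 were marked in control 3 and dnTCF4 1. Neurog3, which specifies endocrine pancreas, and Atoh7, which specifies retinal ganglion cells, were marked in control 3 alone. The regions did not cover the starts of these 4 genes: the nearest lay 0.38 kb from the start at Olig3, 1.12 kb at Atoh7, 1.78 kb at Neurog3 and 2.24 kb at Six6. Some lay within the gene, with 0.497 kb of Olig3, 0.38 kb of Atoh7 and 1.48 kb of Six6 covered in control 3. Eya4 held 9 regions and Npas3 held 7.

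By share of members, 2 short lists stood higher than the developmental factors: epithelial genes at 37.5% and trace amine receptors at 33.3%. The shares were 13.0% for secreted signals, 12% for neuronal genes, 18.75% for matrix genes and 4.55% for serpins. Beside them stands the 9.40% of all protein-coding genes on these chromosomes. These lists too were chosen with earlier results known, most counts are small, and none was tested. Among secreted signals and their inhibitors 3 of 23 were marked, namely Wif1 in control 3 and dnTCF4 1, the WNT agonist gene Rspo3 in control 3, and the inhibin subunit gene Inhbc in control 3 and control 4. Neuronal receptors, channels and synapse genes had 3 of 25, with Vipr2 marked in 3 libraries and Kcnh5 and Kcnk13 in 2. Epithelial genes had 3 of 8, namely Il20ra in 4 libraries, the desmosome-associated gene Perp in 3 and Tmem30b in 2. Matrix and mesenchymal genes had 3 of 16, the laminin genes Lama2 and Lama4 and the fibulin gene Fbln5. Trace amine receptors, many of which sense volatile amines in the nose, had 5 of 15 (Taar1, Taar5, Taar6, Taar8b and Taar8c), each with a mark in control 3 or control 4 and none in a dnTCF4 list, as for 76 of the 158 marked genes (48.1%), 65 of them in control 3 alone. The serpin cluster had 1 of 22 protein-coding members, Serpina3a. No gene was marked among 18 housekeeping genes or among 5 protein-coding imprinted genes.

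Of 17 genes tied to the study or to cancer, 3 (17.6%) had a marked end, against 9.40% of all protein-coding genes on these chromosomes. These were Myb in control 3 and dnTCF4 1, and Lgr5 (a receptor for R-spondins) and Wif1, the former in control 3 only. Ccn6 itself (chr10:39150970-39174376) had no marked end, and the region nearest to one of its starts, 311 bp wide and seen in control 3 only, lay inside the gene, 2.1 kb from that start. Esr1, the oestrogen receptor gene, had no marked outer end, but a region of 714 bp in 1 dnTCF4 library lay 0.818 kb from one of its annotated starts. Ccn2, a relative of Ccn6, was 248.9 kb from its nearest region. Of genes linked to mesenchymal or luminal states, Hmga2 was 117.3 kb from its nearest region, Twist1 83.9 kb and Foxa1 846.4 kb, and the proto-oncogene Mycn was 1484 kb away.

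No difference between control and dnTCF4 libraries passed an exact test at 0.05 in any of 4 measures, of which 2 had too few libraries to do so. The number of peaks on chromosomes 10 and 12, as log10(number + 1), averaged 1.70 ± 1.52 over the control and 1.53 ± 1.03 over the dnTCF4 lists (SD, n = 4 each), with a difference of -0.17 (two-sided exact permutation test, p = 0.886). The share of covered length was 1.00 ± 1.01% and 0.871 ± 0.784% (SD, n = 4 each), with a difference of -0.130 percentage points (p = 0.83 by the same exact test). With 70 assignments the smallest p this design allows is 0.0286. The sign of both differences turned without control 3 (0.36 and 0.324) and without dnTCF4 2 (0.24 and 0.113). It also turned for peak number without control 4 (0.14) and for the share without dnTCF4 3 (0.0217), so no direction can be given.

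The other measures could be had only from control 3 and 4 and from dnTCF4 1, 3 and 4, since control 1, control 2 and dnTCF4 2 had under 10 peaks on these chromosomes and were left out. The share of peaks at gene ends was 9.98% and 10.8% in the control and 16.7%, 9.68% and 12.5% in the dnTCF4 libraries, and the groups overlapped. The difference was 2.58 percentage points (exact permutation test, p = 0.5). Counting gene starts only, the shares were 6.78% and 8.09% in control 3 and 4 and 13.2%, 12.9% and 15.6% in dnTCF4 1, 3 and 4, and the groups did not overlap. That difference was 6.47 percentage points (exact permutation test, p = 0.1), and the values of dnTCF4 3 and 4 rest on 4 and 5 peaks. Over all chromosomes, peaks at gene starts numbered 2771 of 54070 and 1309 of 22745 in control 3 and 4. In dnTCF4 1, 3 and 4 they numbered 1727 of 21492, 456 of 4885 and 141 of 1838, again higher shares. The split was thus not particular to chromosomes 10 and 12. Over all chromosomes it did not hold with control 1 (40 of 426) and dnTCF4 2 (10 of 191) included. The median fold relative to the other chromosomes, as a log2 ratio, was -0.0018 ± 0.0073 (SD, n = 2) in control and 0.051 ± 0.052 (SD, n = 3) in dnTCF4 libraries, with a difference of 0.053 (exact permutation test, p = 0.3). The smallest p for 2 against 3 libraries is 0.1, so neither measure could have passed 0.05. Over the 4 measures the smallest p was 0.3, and no adjusted value could be lower.

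By a rule of at least 2 libraries in 1 group and none in the other, 96 regions (4.29%) were marked in control only, against 9.84% of all regions of the series, and 6 (0.268%) in dnTCF4 only, against 0.216%. A further 33 regions (1.47%, against 5.41%) had a peak in at least 2 libraries of each group. All 96 control regions were marked by the same pair, control 3 and control 4, and leaving out either gave 0. Without dnTCF4 1 the count was 250. All 6 dnTCF4 regions were marked in dnTCF4 1, and without it 1 was left. Lists of equal length took the 1838 most significant peaks of each of 5 libraries, 2 control and 3 dnTCF4. The balance then turned, to 3 control and 10 dnTCF4 regions, while the full lists of the same libraries gave 96 and 6. Equal lists were not counted over all regions of the series, so whether this turn is particular to these chromosomes is unknown. The rule is easier to meet with 3 libraries than with 2. The counts from full lists rest on the 3 libraries with the longest lists, and the share for dnTCF4 was close to that of the whole series.

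No region had an excess of more than 2 control libraries, and the 5 described are the widest of those that had it, so their width was fixed by that choice. One lay 100.9 kb from L3mbtl3, which encodes a reader of methylated lysine (chr10:26476953-26479991), with 3039 bp in control 3 and 380 bp in control 4. One in Rgs17, a regulator of G protein signalling, had 2921 and 494 bp, and one 3.15 kb from Nepn had 2777 and 247 bp. The region 0.513 kb from Raet1e (chr10:22155216-22158029) had 320, 2071 and 1933 bp in control 2, 3 and 4 and also 1420 bp in dnTCF4 1. The region 12.7 kb from H60b, another NKG2D ligand gene, covers the promoter of Gm26740 printed above and had 2326 bp in control 3 and 1074 bp in control 4.

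The regions found only among dnTCF4 libraries were short. One, 5.25 kb from Tbata (chr10:61166496-61166715), was covered over 220, 195 and 175 bp in dnTCF4 1, 3 and 4, with folds of 2.70, 4.31 and 4.46. The others were seen in 2 libraries each. A region 308.8 kb from Fut8, the core fucosyltransferase gene, was 460 bp wide, and regions in Tspear, in Ctnna3 (a catenin gene) and in Plek2 were 264, 256 and 246 bp wide. The Plek2 region lay 1.04 kb from the gene's start, on chromosome 12, with folds of 4.38 in dnTCF4 1 and 5.48 in dnTCF4 4.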

How the data were processed

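Peak lists of 8 H3K27me3 libraries were used, 4 per group, with groups taken from the labels. The submitters' processing notes name MACS2 2.1.2, Bowtie2 2.3.4.1, bedtools 2.28.0, Picard 2.20.2, SAMtools 1.2, cutadapt and Trim Galore, and the build mm10. For their options, and for any use of IgG in peak calling, the entry is: not given in the sources used here. Each deposited list has 9 columns without a header. These hold positions, a score, a fold (the authors' ratio over background), and the authors' −log10 p and −log10 q values. The deposited score was 10 times the −log10 q, truncated, except at 7 peaks. Names in the lists carry the library, so peaks were called per library. The lowest deposited −log10 q was 1.01. Read depth is unknown.

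Peaks were merged into regions where they overlapped in any library, and a region counted as marked by any overlap. Genes (21631 protein-coding on the autosomes and X), starts and promoter sequences came from RefSeq on GRCm38.p6, and annotated length is the sum of the last gene ends (2631 Mb). A gene end window reached 2 kb to each side. All 176 genes of 10 lists matched. Groups were compared by two-sided exact permutation of group means, and the code was tested on simulated data. Named regions were the 12 marked in the most libraries, the 6 widest, the 6 of highest fold among those in at least 2 libraries, and the 5 with the largest difference in libraries in each direction. Named genes were those at these regions, the 10 with an end marked in the most libraries, up to 8 marked members a list, and Ccn6, Ccn2, Hmga2, Esr1, Twist1, Foxa1 and Mycn. Genes named for regions in their bodies, and the promoters shown, were chosen after their values were seen. The members and lists were chosen with earlier results of these data known. Alternatives were a stricter minimum −log10 q of 2, lists of equal length, libraries of at least 1000 peaks, other windows and overlaps, leaving out each library, and a replicate block. Python 3.11.15, numpy 2.4.6, pandas 2.3.3 and matplotlib 3.10.9 were used.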

Additional observations from a re-analysis of the deposited data

How the results depend on the processing

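Over the alternatives run, the exact p of the control against dnTCF4 comparisons was 0.3 to 1 for peak number and 0.4 to 1 for the share of covered length. It was 0.1 to 1 for the share at gene ends and 0.3 to 0.75 for fold, 2 measures for which no alternative could give a p under 0.1. Several signs turned. The difference in log10 peak number became 0.36 without control 3, 0.14 without control 4 and 0.24 without dnTCF4 2, and ranged from -0.73 to 0.36 when each library was left out in turn. The difference in share of covered length became 0.324 without control 3, 0.113 without dnTCF4 2, 0.0217 without dnTCF4 3 and 0.206 percentage points at a −log10 q of at least 2, and ranged from -0.477 to 0.324 when each library was left out. The difference at gene ends became -1.59 at that minimum and -0.0497 percentage points with windows of 1 kb, was 6.47 percentage points with gene starts only (exact p = 0.1), and ranged from 0.704 to 4.22 without each library. The difference in log2 fold ratio ranged from 0.025 to 0.082 over all alternatives, and from 0.032 when each library was left out.

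Counts depended on the longest lists. When each library was left out, regions marked in control ranged from 0 to 250, in dnTCF4 from 1 to 12, in both groups from 6 to 33, and genes with a marked end from 93 to 158. The low ends came without control 3 or 4 for control (0) and both groups (6), without dnTCF4 1 for dnTCF4 (1), and without control 3 for genes (93). Without dnTCF4 4 the dnTCF4 count was 3, and without dnTCF4 3 the count in both groups was 19. At a −log10 q of at least 2 there were 13 control regions, 10 in both groups and 31 genes. With the 1838 most significant peaks of each of 5 libraries, there were 3 control regions, 10 dnTCF4 regions, 9 in both groups and 13 genes. These lists held 52 and 40 peaks on chromosomes 10 and 12 in control 3 and 4, and 49, 17 and 32 in dnTCF4 1, 3 and 4. With 25% of a region required, 20 were marked in both groups, and windows of 1 kb gave 95 genes. The number of libraries at the named regions changed by at least 1 for 23 of 31 at the stricter minimum, for 27 with equal lists and for 17 with 25% covered, where the region in Tbc1d30 went from 7 libraries to 1. That check and the use of libraries of at least 1000 peaks for counts, which changed none of them, were chosen after seeing the data.

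The labels give both groups the numbers 1 to 4. Deviations of same-numbered libraries from their group means correlated at -0.269 for peak number and -0.553 for share. Correlations over 4 pairs are too few to tell whether same-numbered libraries were prepared together. With a replicate block the differences were -0.17 (exact sign-flip p = 0.875) for log10 peak number, -0.130 percentage points (p = 0.625, exact) for share, 0.704 percentage points (p = 1, exact) at gene ends and 0.082 (p = 0.5, exact) for log2 fold ratio, the last 2 over 2 pairs. Unknown depth limits every absence reported, since a library with a short list can miss a mark.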
